A study of Mus musculus with 10 samples.

Results

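The primary cilium is a solitary, microtubule-based projection that most non-dividing cells, neural stem cells among them, grow from the mother centriole and take down again before mitosis. Its shaft is built and maintained by intraflagellar transport (IFT), in which trains of IFT-B and IFT-A subunits carry cargo to the tip with kinesin and back with the dynein Dync2h1. The BBSome, an octameric coat put together with the help of chaperonin-like proteins, moves membrane proteins in and out of the cilium, and the transition zone at its base acts as a gate. RFX transcription factors drive many of the genes for these parts, whereas Foxj1 is best known as the switch for motile cilia.

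The expression of 34 genes of primary cilium assembly was followed here, out of the 48795 genes in the deposited table. They were chosen by symbol, as genes for IFT, the BBSome, the transition zone and the regulators of cilia. The rule used no measured value, but the set was proposed with earlier results of these data known. By role they were 11 IFT-B genes, 3 IFT-A genes, 6 BBSome subunits, 2 chaperonin-like genes of the Bardet-Biedl syndrome family, 7 transition zone genes, the ciliary membrane GTPase Arl13b, the IFT motor Dync2h1 and 3 transcription factors (Foxj1, Rfx2 and Rfx3). All 34 symbols were found in the table and all 34 passed the filter on low counts, which left 12859 genes to test.

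RNA-seq had been carried out on neural stem and progenitor cells (NSC/NPCs) cultured from the subependymal zone, the neurogenic niche along the lateral ventricles, of mice 10 weeks old. Proliferating neurospheres (PRO), floating aggregates grown for 3 days in vitro (DIV) with 20 ng/ml EGF and 10 ng/ml FGF, were compared with attached cells collected at 2 + 1 DIV (DIFF), that is, 2 days on Matrigel with FGF and then 24 h without mitogens in 2% serum. Wild-type (WT) cells gave 3 libraries of each stage, and cells labelled Cdkn1b (p27KO), from Cdkn1b mutant mice, gave 2 of each. The growth time of the neurospheres is that of the labels and methods, and elsewhere the text of the study gives a longer one. The methods keep the Cdkn1b mice on a C57BL/6 J background and do not give the strain of the WT cultures separately.

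The labels call the replicates biological without saying whether they came from separate animals or cultures, so that the p-values measure the spread between these libraries. Totals ranged from 19190068 to 25291674 counts per library, and levels are given below as CPM, counts scaled to a common library size with edgeR's TMM factors. Counts of Cdkn1b itself were not lost in the libraries labelled p27KO, though lower than in WT in DIFF. In PRO they were 104 ± 14.6 CPM (SD, n = 2) with this label and 107 ± 5.28 CPM (n = 3) in WT. In DIFF they were 139 ± 3.35 CPM (n = 2) and 205 ± 2.70 CPM (n = 3), a log2 difference of -0.56 (adjusted p = 0.012, edgeR). Adjusted p-values throughout are those of the quasi-likelihood test of edgeR, corrected over all 12859 genes by Benjamini and Hochberg's method. The methods state that the mice were genotyped, by PCR or by an outside service. Which part of Cdkn1b the mutation removes is not given in the sources used here. The description field of these 4 libraries names WT cells, so that they are called the libraries labelled p27KO throughout. Xist was at 2269 to 3615 CPM in them and at no more than 2.60 CPM in WT libraries, and 4 Y-linked genes summed to at most 0.581 CPM against 187 to 523 CPM, so that genotype and sex, which these genes mark, cannot be told apart in any comparison between them.

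All 10 stem and progenitor markers examined were detected in every group at 1 CPM or more. Markers of microglia summed to at most 0.629 CPM in any library, and the endothelial genes Cdh5 and Cldn5 were at 0 throughout. Ependymal cells, the multiciliated cells that line the ventricle, express many cilium genes in large amounts, and Foxj1 is a member of their marker list as well as of the cilium genes. The 11 ependymal markers summed to 39.2 to 59.7 CPM in WT PRO and 110 to 138 CPM in WT DIFF libraries, and to 46.6 to 48.8 and 102 to 116 CPM in those labelled p27KO. Without Foxj1 the remaining 10 summed to 19.4 to 46.0 CPM in WT PRO and 23.5 to 37.7 CPM in WT DIFF, and to 27.999 to 33.8 and 17.7 to 25.5 CPM in the libraries labelled p27KO. This sum pools genes that moved both ways. Of the 4 ependymal markers tested, Foxj1, Dynlrb2 (0.91, SE 0.32) and Pltp (1.33, SE 0.42) rose in WT on the log2 scale and none fell, while S100b, with the highest mean of the list apart from Foxj1, did not pass (-0.64, SE 0.54). The other 7 failed the filter. Among them Hydin went from a mean of 6.41 to 0.711 CPM in WT, Tekt1 from 0.415 to 1.501 CPM and Cfap126 from 0.857 to 3.10 CPM, and Tmem212 had no counts in 3 of the 4 groups. Fibroblast and mural markers went from 65.7 to 151 CPM in WT PRO to 29.2 to 46.8 CPM in WT DIFF, and the 7 endothelial markers from 13.3 to 50.3 to 5.25 to 12.9 CPM. Of the 7 fibroblast and mural genes only 1, Cspg4, could be tested (log2 fold change -1.75 in WT). Of the endothelial genes 2 could be tested, and in WT Kdr rose (1.99) while Flt1 fell (-3.71). These 2 sums thus rest on few genes and do not by themselves show the cell types named. The part of other cell types in the results below was not tested. Proliferation markers summed to fewer counts in DIFF, from 2347 to 2575 CPM in WT PRO to 191 to 306 CPM in WT DIFF, and from 2570 to 2776 CPM to 716 to 826 CPM in the libraries labelled p27KO.

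RFX factors bind the X-box, an imperfect inverted repeat, and the promoters of the cilium genes were searched for its letters because the RFX genes Rfx2 and Rfx3 are themselves members. RefSeq promoters (GRCm38.p6, 250 bases before to 50 after each start) were at hand for 30 members, and for Ift80, Ift81, Ift122 and Foxj1 none was used. The motif GTTGCC, on either strand, stood in 18 of the 30 (60%), against 14.1% of all 27025 genes with a promoter in the table and 14.9% of the 9539 genes that were also tested. The longer form GTTNCC, followed after 0 to 3 bases by GGNAAC, which reads the same on both strands and includes GTTGCC wherever N is G, stood in 5 of 30 (16.7%) against 0.936% of all genes. By role, GTTGCC was found in 6 of 7 transition zone genes and 4 of 9 IFT-B genes, but in neither of the chaperonin-like genes Bbs10 and Bbs12. These are matches of letters and not sites shown to be bound, and a promoter without a match lacks only these letters in this window. The 5 promoters with the longer form are shown as stretches of 100 bases before the start (for Tctn1, 30 bases after it), read 5′ to 3′ on the strand of the gene, since they are the members in which both arms of the repeat can be seen. Capitals mark the repeat.
Ift57, chr16:49699190-49699289 (+): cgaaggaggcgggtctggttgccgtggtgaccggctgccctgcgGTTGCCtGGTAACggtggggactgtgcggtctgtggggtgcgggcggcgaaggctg
Bbs7, chr3:36613454-36613553 (-): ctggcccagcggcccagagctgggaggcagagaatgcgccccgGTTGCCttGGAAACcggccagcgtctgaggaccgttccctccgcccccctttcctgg
Tctn1, chr5:122264411-122264440 (-): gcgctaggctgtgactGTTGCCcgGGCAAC
Tctn3, chr19:40612316-40612415 (-): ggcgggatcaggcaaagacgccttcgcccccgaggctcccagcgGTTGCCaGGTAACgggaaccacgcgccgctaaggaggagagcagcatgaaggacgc
Mks1, chr11:87853115-87853214 (+): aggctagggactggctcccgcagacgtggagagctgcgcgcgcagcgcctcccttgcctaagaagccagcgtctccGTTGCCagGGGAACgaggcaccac

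The spacer between the arms was 1 base in Ift57 and Tctn3 and 2 bases in Bbs7, Tctn1 and Mks1. The repeat ended 48 bases before the start in Ift57, 108 in Bbs7, 128 in Tctn3 and 11 in Mks1, whereas in Tctn1 it lay 37 to 50 bases after the start, at the very end of the window searched. Rfx2 and Rfx3 held GTTGCC without the longer form, and their stretches are shown because they are the RFX genes among the members. In Rfx2 it lay 116 to 111 bases before the start and in Rfx3 32 to 37 bases after it, and capitals mark this motif only.
Rfx2, chr17:56831072-56831171 (-): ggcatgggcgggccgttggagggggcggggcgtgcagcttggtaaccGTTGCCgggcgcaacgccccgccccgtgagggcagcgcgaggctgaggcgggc
Rfx3, chr19:28011118-28011147 (-): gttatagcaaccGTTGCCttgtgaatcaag

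To ask whether the cilium program moved between the stages, DIFF was compared with PRO in WT. The stages differ in attachment, Matrigel and serum as well as in mitogens, so that the parts of these cannot be told apart. Of the 34 members 24 rose, 3 fell and 7 did not pass the test, with a median log2 fold change of 0.64 against -0.00 over all genes tested. Among all genes, 33.5% rose and 33.9% fell by the same rule (edgeR, adjusted p under 0.05), and the counts by role below stand against these shares. The DIFF libraries lay above every PRO library in 25 members, against 35.7% of all genes, and below every PRO library in 3, against 36.5%. Members differed widely, from a log2 fold change of -0.61 in Bbs12 to 2.79 in Rfx2. In bulk RNA, fewer cells that express a gene and less of its RNA per cell cannot be told apart.

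All 3 transcription factors rose, and Rfx2 and Foxj1 rose more than any other member. Foxj1 (chr11:116330704-116335399, minus strand, GRCm38) was at 19.8, 16.3 and 13.8 CPM in the WT PRO libraries and at 100.4, 86.1 and 83.1 CPM in WT DIFF. Rfx2 (chr17:56775897-56831013, minus strand), an RFX factor of ciliated cells, was at 4.02, 3.88 and 2.95 CPM in PRO and 26.997, 25.9 and 22.3 CPM in DIFF. In neither gene did any DIFF library come near a PRO library. The log2 fold changes were 2.44 (SE 0.15, 5.42-fold, adjusted p = 5.77e-07) for Foxj1 and 2.79 (SE 0.20, 6.94-fold, adjusted p = 1.68e-06) for Rfx2, by edgeR.

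Rfx3 (chr19:27761721-28011166, minus strand), required for primary cilia on several embryonic cell types, had the most counts of the 3. It was at 69.5, 89.3 and 90.6 CPM in WT PRO and 195, 227 and 185 CPM in WT DIFF. The DIFF libraries lay clear of the PRO libraries, which were themselves spread. Its log2 fold change was 1.28 (SE 0.12, 2.44-fold, adjusted p = 7.43e-06, edgeR). In RPKM, the CPM per kilobase of all annotated exons of a gene, which allows a rough comparison of genes, the order was another. The transcripts expressed may be shorter than that length, so that the ranks are approximate. In WT DIFF, Foxj1 reached 34.3 ± 3.53 RPKM (SD, n = 3), the highest of the 34 members, and Rfx3 18.3 ± 1.99 RPKM, rank 3 after Ift74 at 18.7 ± 1.27 RPKM, a difference within their spread. Rfx2 stood at 3.43 ± 0.336 RPKM, rank 25. Over the 34 members the mean level went from a median of 3.31 RPKM (range 0.495 to 12.8) in WT PRO to 5.42 RPKM (1.66 to 34.3) in WT DIFF, and from 3.39 to 5.74 RPKM in the libraries labelled p27KO.

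**Figure D1:**
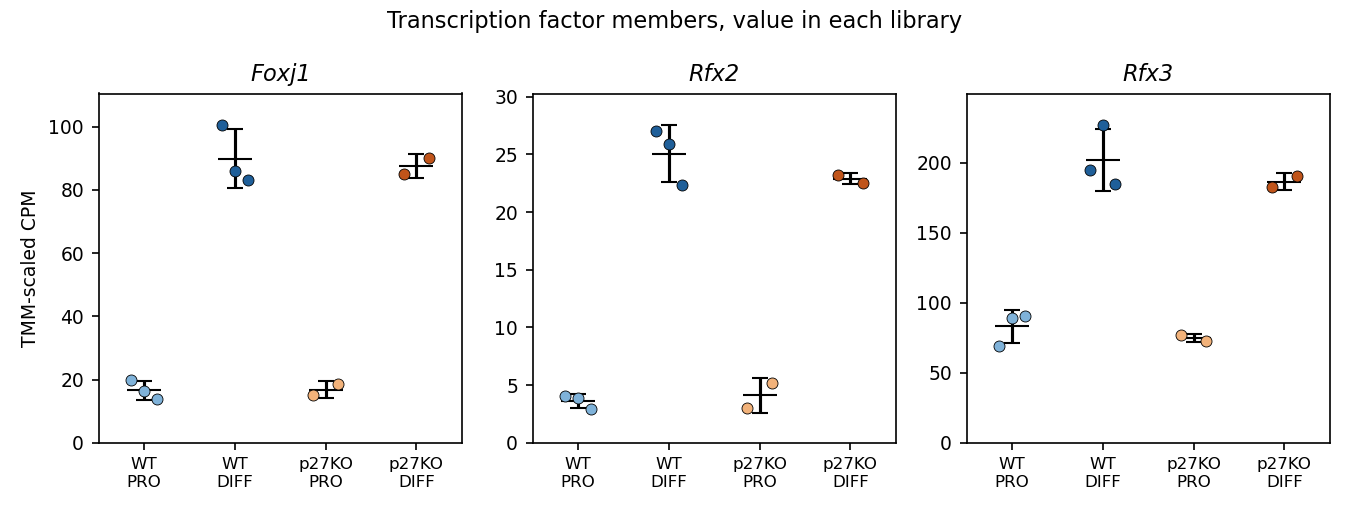
Level of the transcription factors Foxj1, Rfx2 and Rfx3 in each library (points, TMM-scaled CPM on a linear axis from 0), with the group mean and SD as bars, for WT (3 libraries per stage) and the libraries labelled p27KO (2 per stage). In each gene every DIFF library lies above every PRO library in both genotypes.

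All 11 IFT-B genes passed the test in WT, 9 upward and 2 downward, and they summed to 253 to 260 CPM in PRO and 370 to 381 CPM in DIFF. IFT-B forms the anterograde trains, and Ift22, Ift27, Ift46, Ift52, Ift74, Ift81 and Ift88 belong to its core. All of these but Ift27 rose, by 0.55 to 1.06 on the log2 scale, while Ift27 fell (-0.37). Ift46 (chr9:44767908-44793447, plus strand) was at 20.9, 20.1 and 20.1 CPM in WT PRO and 43.8, 42.1 and 41.2 CPM in WT DIFF, with no overlap and little scatter (log2 fold change 1.06, SE 0.07, adjusted p = 1.61e-06, edgeR). Ift81, which with Ift74 forms the tubulin-binding module, rose by about as much (log2 fold change 1.06, SE 0.11), and Ift74 itself by 0.56 (SE 0.09). Among the peripheral subunits Ift80 (0.77, SE 0.08), Ift172 (0.59, SE 0.07) and Ift57 (0.38, SE 0.11) rose, as did the small GTPase Ift22 (0.69, SE 0.11).

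The 2 IFT-B genes that fell were small subunits. Ift20 (chr11:78536361-78541737, plus strand), which also sits on the Golgi and sorts ciliary membrane cargo there, was at 19.6, 19.4 and 17.7 CPM in WT PRO and 14.2, 13.2 and 14.6 CPM in WT DIFF. All 3 DIFF libraries were below all 3 PRO libraries, and the log2 fold change was -0.43 (SE 0.10, adjusted p = 0.00301, edgeR). Ift27, a Rab-like GTPase that works with the BBSome in ciliary export, fell by 0.37 on the log2 scale (SE 0.13). Its call was lost without PRO library 1, DIFF library 2 or DIFF library 3 of WT (log2 fold change -0.26, -0.34 and -0.29).

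Of the IFT-A genes, which serve the return trip and the entry of membrane proteins, 2 of 3 rose. Ift122 (chr6:115853470-115926699, plus strand) was at 34.7, 33.8 and 33.4 CPM in WT PRO and 52.2, 58.4 and 55.1 CPM in WT DIFF. The groups were well apart, with a log2 fold change of 0.70 (SE 0.08, adjusted p = 3.29e-05, edgeR). Ift140 rose by 0.31 (SE 0.08), and Ift43 did not pass the test (-0.16, 95% interval -0.44 to 0.11). Dync2h1 (chr9:6928503-7184446, minus strand), the heavy chain of the retrograde motor, was at 54.4, 58.1 and 62.7 CPM in WT PRO and 90.7, 95.8 and 82.4 CPM in WT DIFF. Its DIFF libraries were all higher, by 0.62 on the log2 scale (SE 0.08, adjusted p = 9.55e-05, edgeR).

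Within the BBSome 4 of 6 subunits rose in WT and none fell, and the 6 together summed to 74.3 to 78.2 CPM in PRO and 130 to 144 CPM in DIFF. Bbs4 (chr9:59321990-59353508, minus strand), a subunit that joins the complex late in its assembly, was at 6.52, 7.49 and 7.16 CPM in PRO and 16.967, 22.7 and 21.3 CPM in DIFF. Every DIFF library was well above every PRO library, and the log2 fold change was 1.53 (SE 0.13, adjusted p = 4.98e-06, edgeR). Bbs2 moved nearly as far (1.51, SE 0.09), followed by Bbs1 (1.09, SE 0.12), which recognises cargo, and Bbs9 (0.50, SE 0.10). Bbs5 (0.33, 95% interval -0.02 to 0.69) and Bbs7 (0.14, -0.10 to 0.38) did not pass the test. Bbs7 sits in the core of the complex together with Bbs2 and Bbs9.

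The chaperonin-like genes Bbs10 and Bbs12, whose products help to assemble the BBSome, moved in opposite directions in WT. Bbs10 (chr10:111298679-111301727, plus strand) was at 4.801, 4.48 and 4.29 CPM in WT PRO and 8.23, 9.56 and 10.1 CPM in WT DIFF, and Bbs12 (chr3:37312554-37321453, plus strand) at 7.78, 7.53 and 8.86 CPM and 3.84, 5.41 and 6.44 CPM. The groups did not overlap in either gene, but the Bbs12 libraries of DIFF were widely scattered. Bbs10 rose by 1.05 (SE 0.16, adjusted p = 0.000221), and Bbs12 fell by 0.61 (SE 0.21, adjusted p = 0.0267), on the log2 scale by edgeR. The Bbs12 call was lost when PRO library 3, DIFF library 1 or DIFF library 2 of WT was left out (log2 fold change -0.54, -0.43 and -0.64). Exons of Bbs12 overlap Gm43439 on the same strand and Cetn4 on the other, and the use of strand in the counting is not stated, so that its counts may hold reads of these genes. The same holds for overlaps on the opposite strand in Ift57 (Gm15518), Ift88 (Ift88os), Bbs4 (Adpgk) and Tctn1 (Gm15481 and Hvcn1). It also holds for several further genes named in the text. Among them are Mkks, with an overlap on the same strand, and Ccdc39, Pkd1, Plk1, Nek2 and Hydin, on the opposite one.

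In the transition zone 4 of 7 genes rose in WT, none fell, and the 7 summed to 93.8 to 98.2 CPM in PRO and 141 to 165 CPM in DIFF. Tctn1 (chr5:122237848-122264460, minus strand), a tectonic needed for Hedgehog signalling and ciliogenesis in some tissues, was at 11.3, 9.87 and 8.45 CPM in WT PRO and 25.2, 30.2 and 23.2 CPM in WT DIFF. No library of the groups overlapped, and the log2 fold change was 1.41 (SE 0.16, adjusted p = 3.37e-05, edgeR). Its relative Tctn2 rose by 0.96 (SE 0.12), and Mks1 (0.78, SE 0.20) and Cc2d2a (0.68, SE 0.09), both altered in Meckel syndrome, rose too. Tctn3 (-0.02, 95% interval -0.26 to 0.22), B9d1 (-0.12, -0.59 to 0.34) and B9d2 (0.24, -0.28 to 0.76) did not pass the test. The interval for Tctn3 leaves out a change of the size seen in Tctn1 or Tctn2. Arl13b, a small GTPase of the ciliary membrane that serves to mark cilia under the microscope, did not pass either (0.25, 95% interval -0.05 to 0.55).

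GTTGCC stood in the promoters of 11 members that rose in WT out of 18 members with it, and 9 of the 12 members without it rose. The median log2 fold changes were 0.49 and 0.62. Of the 5 members with the longer repeat, Ift57, Tctn1 and Mks1 rose while Bbs7 and Tctn3 did not pass the test. These counts are a description over few genes and carry no test.

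**Figure D2:**
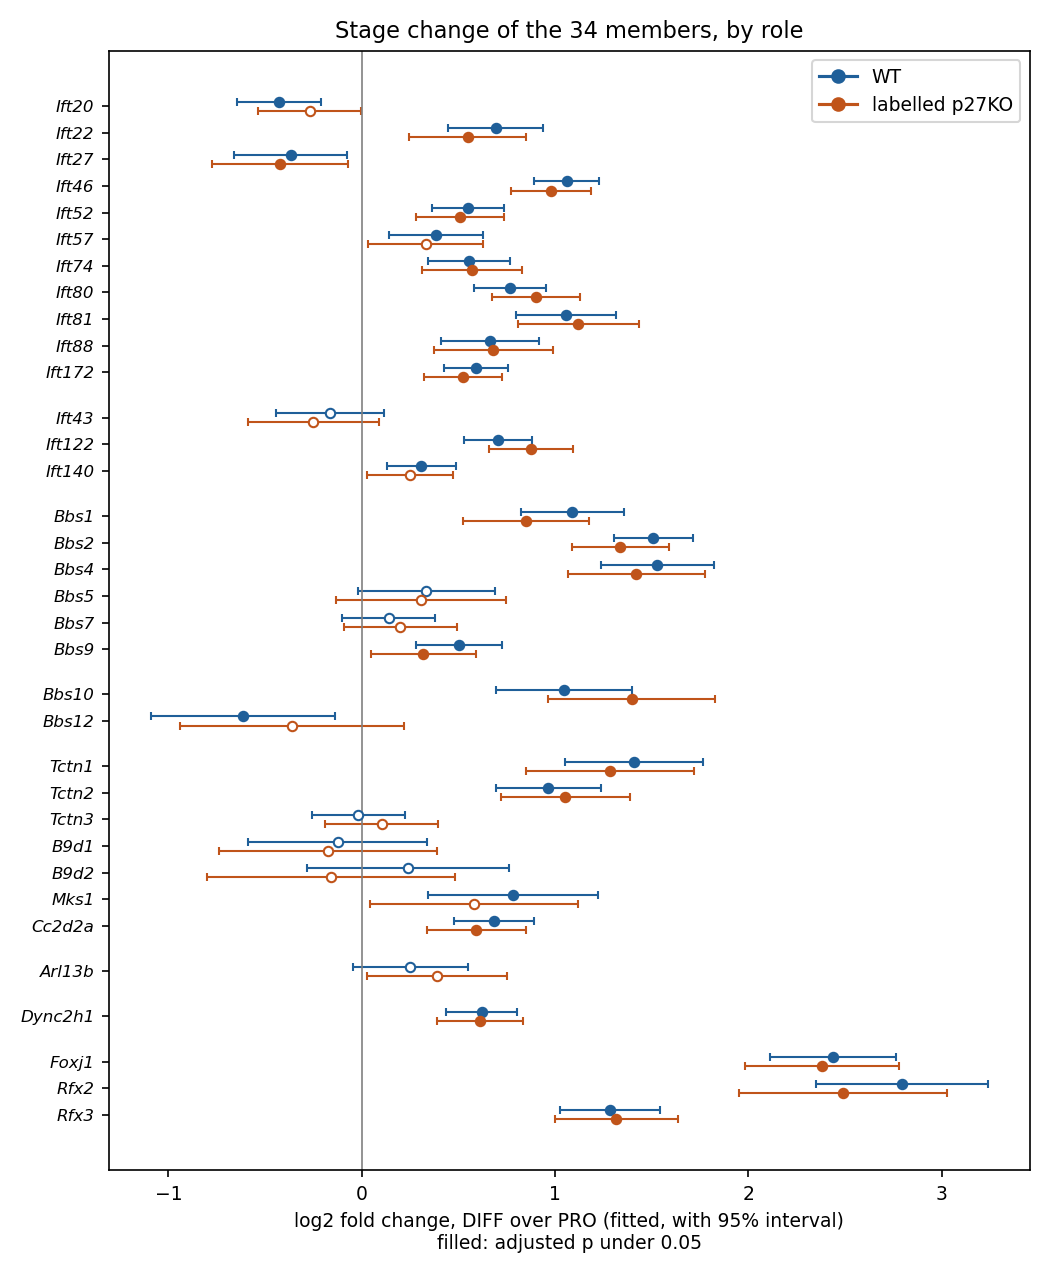
Fitted log2 fold change from PRO to DIFF with its 95% interval for each of the 34 members, ordered by role, in WT (blue) and in the libraries labelled p27KO (orange). Filled points passed an adjusted p of 0.05, and Rfx2, Foxj1, Bbs4, Bbs2, Tctn1 and Rfx3 reach furthest to the right in WT, while Ift20, Ift27 and Bbs12 lie left of 0.

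The same comparison was made in the libraries labelled p27KO, which share no library with the WT comparison. Here 21 members rose, 1 fell and 12 did not pass, with a median log2 fold change of 0.58 against -0.03 over all genes, of which 27.5% rose and 30.2% fell. DIFF lay above PRO without overlap in 28 members, against 38.8% of all genes, and below it in 5, against 41.4%. All 21 members that rose were among the 24 that rose in WT, and the remaining 3 (Ift57, Ift140 and Mks1) had adjusted p-values of 0.0559, 0.0523 and 0.0616 by edgeR. The member that fell was Ift27 (log2 fold change -0.42, SE 0.16), a call that was lost when any of the 4 libraries labelled p27KO was left out (-0.49 to -0.35). Bbs9, the weakest rise (0.32, SE 0.12), was likewise not called when any of these 4 libraries was left out (0.25 to 0.39), nor with the replicate number as a block. The Bbs9 call was also lost with either other filter on low counts and with only the groups compared. It was lost too with a replicate block within genotype, and without PRO library 3 or DIFF library 3 of WT. Ift22 was not called without DIFF library 2 labelled p27KO (0.46).

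Rfx2 and Foxj1 again rose furthest. Foxj1 was at 15.0 and 18.6 CPM in the PRO libraries labelled p27KO and 84.8 and 90.1 CPM in DIFF (log2 fold change 2.38, SE 0.18). Rfx2 was at 3.03 and 5.18 CPM against 23.2 and 22.6 CPM (2.49, SE 0.24), and Rfx3 at 77.0 and 72.9 CPM against 182 and 191 CPM (1.32, SE 0.14). These levels fell within or close to the ranges of the WT libraries at each stage.

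Of the structural genes, 8 of 11 IFT-B, 1 of 3 IFT-A, 4 of 6 BBSome, 1 of 2 chaperonin-like and 3 of 7 transition zone genes rose. Of all genes 27.5% rose here, and the smaller of these counts are not far from that share. Ift46 went from 20.0 and 19.8 CPM to 40.5 and 38.0 CPM, and Ift122 from 29.4 and 33.0 CPM to 55.2 and 59.1 CPM. Bbs4 went from 7.68 and 7.16 CPM to 20.4 and 19.3 CPM, and Tctn1 from 8.92 and 12.2 CPM to 26.0 and 25.4 CPM. In these 4 genes DIFF was clear of PRO. Dync2h1 went from 62.8 and 61.1 CPM to 94.8 and 94.2 CPM, and Bbs10 from 4.44 and 3.405 CPM to 9.57 and 11.1 CPM.

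The genes that had fallen in WT were less certain here. Ift20 was at 18.0 and 16.9 CPM in PRO and 15.3 and 13.6 CPM in DIFF (log2 fold change -0.27, SE 0.12, adjusted p = 0.0761, edgeR). Bbs12 was at 9.59 and 6.56 CPM in PRO and 6.10 and 6.48 CPM in DIFF, where its PRO libraries differed more from each other than PRO from DIFF on average (-0.36, SE 0.26). Its change was -0.06 without PRO library 1 and -0.61 without PRO library 2 labelled p27KO. Over the 34 members the WT and p27KO log2 fold changes correlated at a Pearson r of 0.978 and had the same sign in 32, a description across genes, which are not independent. Over all 12859 genes r was 0.952 and the sign was the same in 11855, a share close to that of the members.

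**Figure D3:**
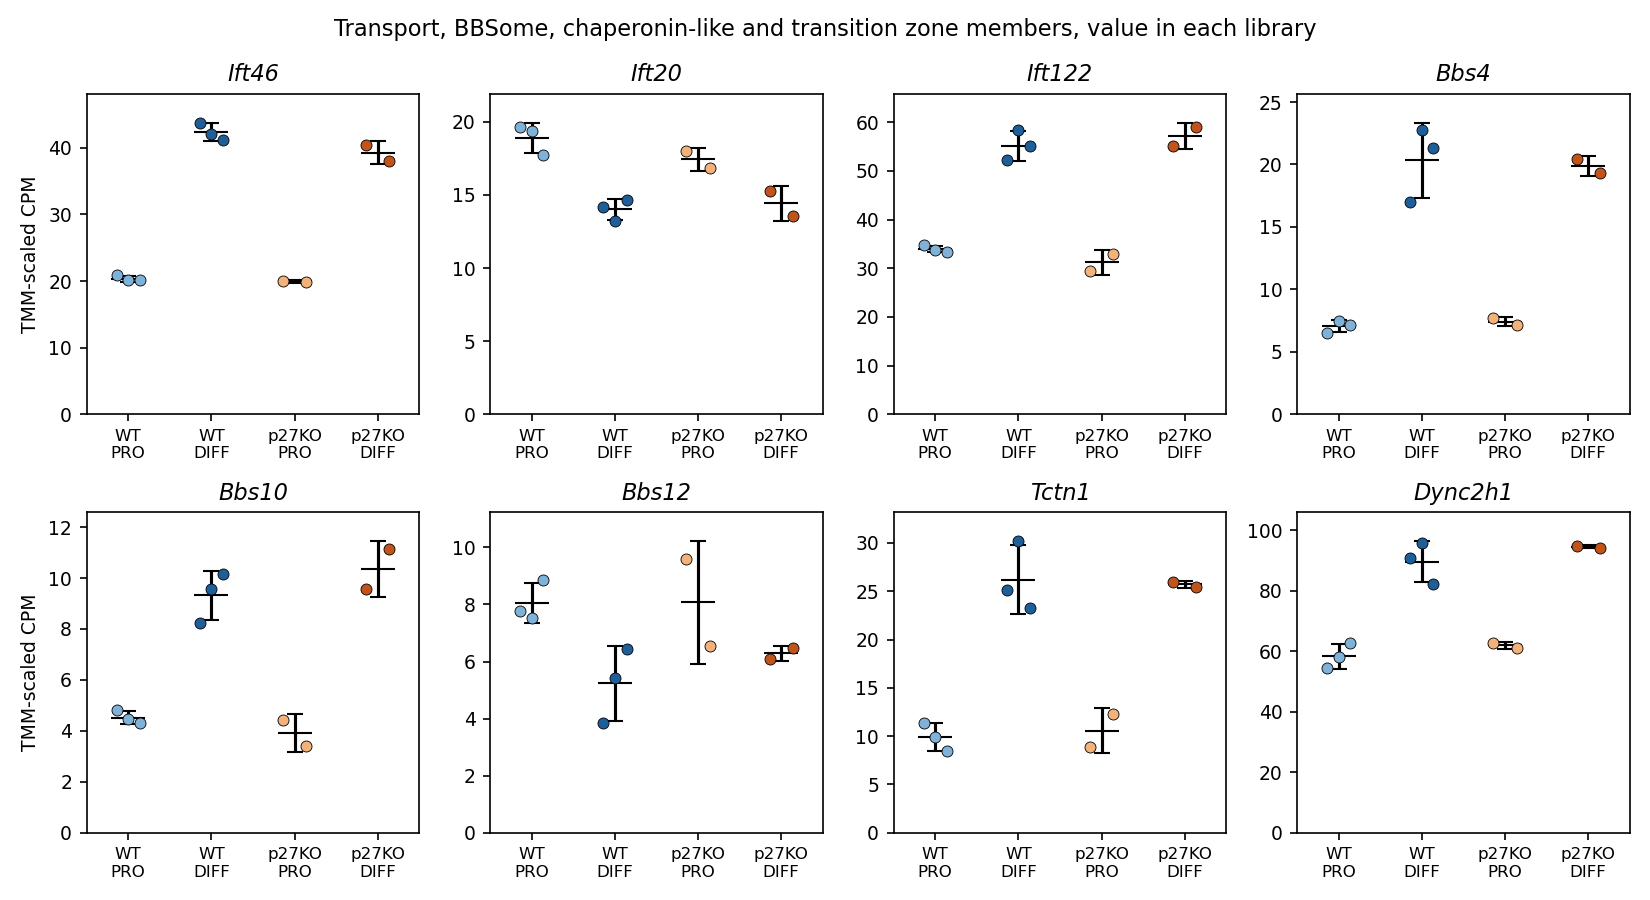
Level of 8 further members in each library (points, TMM-scaled CPM on linear axes from 0), with the group mean and SD as bars. Ift46, Ift122, Bbs4, Bbs10, Tctn1 and Dync2h1 are higher in DIFF in both genotypes, Ift20 is lower in DIFF in both though called in WT only, and the Bbs12 libraries overlap most nearly.

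Whether the stage change itself depended on the genotype was asked with the interaction, the p27KO change minus the WT change. No member had an unadjusted p under 0.05 (0 of 34, against 554 of all 12859 genes). None passed at an adjusted p of 0.05 either, and DESeq2 called 0 as well. By edgeR 0.389% of all genes (50) passed, every one of them upward. That count of all genes was unstable, at 0 in 6 of the 10 fits with 1 library left out (PRO library 2 or 3 of WT or any library labelled p27KO) and at 13, 40, 82 and 89 in the others (without PRO library 1, DIFF library 3, DIFF library 2 and DIFF library 1 of WT). It was 157 in DESeq2 and 29 with a replicate block within genotype. The members' interaction terms ran from -0.40 in B9d2 to 0.35 in Bbs10 on the log2 scale, with a median of -0.05. A p that misses the threshold does not show that the changes were alike, and the 95% intervals, with a median width of 0.80, reached from -1.22 to 1.00 at the extremes. For Foxj1 the interval was -0.55 to 0.44 and for Ift46 -0.34 to 0.18. That for Rfx3 was -0.37 to 0.44.

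Comparing genotypes within a stage gave no called member either. In DIFF 0 of 34 passed, against 2.04% of all genes. An unadjusted p under 0.05 was reached by 1 member (Bbs2), against 1901 of all 12859 genes. The log2 difference of Bbs2 was -0.23 (95% interval -0.45 to -0.00, adjusted p = 0.325, edgeR). Bbs2 was at 29.3, 31.2 and 28.7 CPM in WT DIFF and 25.8 and 25.1 CPM in DIFF labelled p27KO. The other differences in DIFF lay between -0.26 and 0.26, and the intervals of all members between -0.83 and 0.79. In PRO 0 of 34 passed, against 0.0156% of all genes. None had an unadjusted p under 0.05, against 603 of all 12859 genes, and the intervals lay between -0.63 and 0.73. DESeq2 called no member in either stage.

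To set these members among other cilium genes, 97 further genes from 9 lists were examined, of which 80 could be tested. Of these, 37 rose and 25 fell in WT, with a median log2 fold change of 0.14. By the same rule 33.5% of all genes rose and 33.9% fell, and the counts in each list below stand against these shares. The falls among the 80 were near the share of all genes. Among the IFT motors 6 of 9 tested genes rose (the kinesin-II subunits Kif3a, Kif3b and Kifap3 and the dynein-2 subunits Dync2li1, Wdr34 and Wdr60), by 0.32 to 1.11 on the log2 scale, and Dynll1, a light chain shared by many complexes, fell by 1.02. Of 14 further transition zone genes 9 rose, among them Rpgrip1l (1.36, SE 0.08) and Ahi1 (0.75, SE 0.07), and 4 fell, of which Nphp4 fell furthest (-1.08, SE 0.20).

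Of 8 further IFT subunits 3 rose, led by Ttc30b (1.85, SE 0.12) and the IFT-A gene Wdr19 (1.60, SE 0.10), and 2 fell, Ttc21b (-0.52, SE 0.09) and Ttc30a1 (-0.33, SE 0.12). Ttc30a1 and Ttc30b are near-identical copies, and how RSEM shared reads between them is uncertain. In the BBSome list Ttc8, itself a BBSome subunit (0.89, SE 0.12), and Lztfl1, a regulator of its traffic (0.81, SE 0.15), rose, and the chaperonin-like Mkks fell by 0.44 on the log2 scale.

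Basal body docking and planar polarity effector genes rose in 6 of 11 cases, among them Cplane1 (0.85, SE 0.09), Ttbk2, the kinase that starts ciliogenesis (0.68, SE 0.08), and Ofd1 (0.64, SE 0.10). The 3 that fell, Cep164, Cep83 and Cep89, are distal appendage genes, but Sclt1, of the same structure, rose. Membrane traffic and signalling genes were split, with 3 of 14 rising and 5 falling, not far from the shares of all genes. Among those rising was the Hedgehog regulator Gpr161 (0.68, SE 0.09). Among those falling were the polycystin Pkd1 (-1.61, SE 0.20) and Rab3ip, which activates Rab8 (-0.74, SE 0.10).

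Of 5 further transcription factors tested, Rfx5, best known for MHC class II genes, rose (0.73, SE 0.11), while Myb (-2.39, SE 0.19), Rfx7 and Rfx4 fell. Mcidas and Gmnc, upstream switches of multiciliated cells, were among those dropped for low counts, and Mcidas had a mean of at most 0.0199 CPM in any group. Motile axoneme genes serve the beating cilia of multiciliated cells, and 5 of 16 could be tested. All 5 rose in WT, led by Ccdc39 (5.01 ± 1.45 CPM in PRO and 25.7 ± 1.83 CPM in DIFF, log2 fold change 2.37, SE 0.19), Rsph9 (1.99, SE 0.27) and Ccdc40 (1.76, SE 0.27). The filter dropped the rest, among them Hydin, whose level fell in WT as given above, so that the 5 do not stand for the whole list.

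When genes with 1 CPM in at least 4 libraries were kept instead, 6 more motile genes rose in WT and Hydin fell by 3.21 on the log2 scale. That filter lets in genes by the stage in which they are high, so that their number carries no weight. The outer-arm dynein gene Dnah9 had the highest DIFF level among the 6, at 0.379 ± 0.0495 CPM in WT PRO and 9.34 ± 0.328 CPM in WT DIFF (SD, n = 3). With the p27KO label its means were 0.612 ± 0.0744 and 9.47 ± 1.89 CPM (n = 2).

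**Figure D4:**
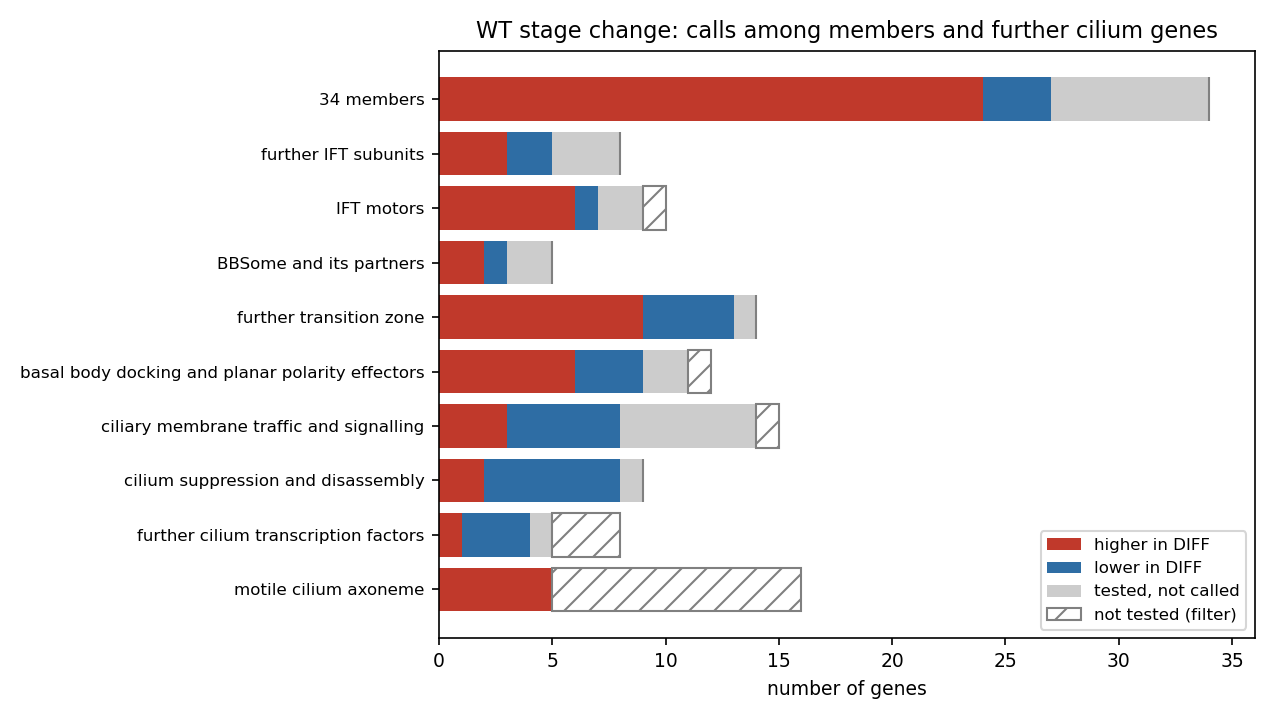
Number of genes called higher (red), called lower (blue) or tested and not called (grey) from PRO to DIFF in WT, with genes dropped by the filter hatched, for the 34 members and 9 lists of further cilium genes. The members, the IFT motors and the further transition zone genes are mostly red, and the suppression and disassembly genes mostly blue.

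The list with the deepest falls was that of genes that suppress or take down the cilium. Of 9, 6 fell in WT and 2 rose (Cep97 and Hdac6), and among those that fell was Kif24, a kinesin that holds back ciliogenesis (-1.86, SE 0.11). Aurora A (Aurka), whose activity triggers ciliary resorption, went from 57.5, 56.3 and 60.2 CPM to 7.83, 3.94 and 5.63 CPM in WT, and from 51.3 and 62.6 CPM to 15.2 and 13.2 CPM in the libraries labelled p27KO. Every DIFF library was far below PRO, but those labelled p27KO stayed above all WT DIFF libraries, by 1.30 on the log2 scale (SE 0.22, adjusted p = 0.0149, edgeR). The mitotic kinases Plk1 (1.52, SE 0.25, adjusted p = 0.0120) and Nek2 (2.01, SE 0.30, adjusted p = 0.00772) differed in the same direction in DIFF, all by edgeR. These are the only genes called in that comparison among the 97, and all 3 also act in mitosis, so that their values are given beside the proliferation markers above, and the part of dividing cells in them was not tested. Their interaction terms of 1.32, 1.49 and 1.77 did not pass (adjusted p = 0.187, 0.188 and 0.195 for Aurka, Plk1 and Nek2, edgeR).

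**Figure D5:**
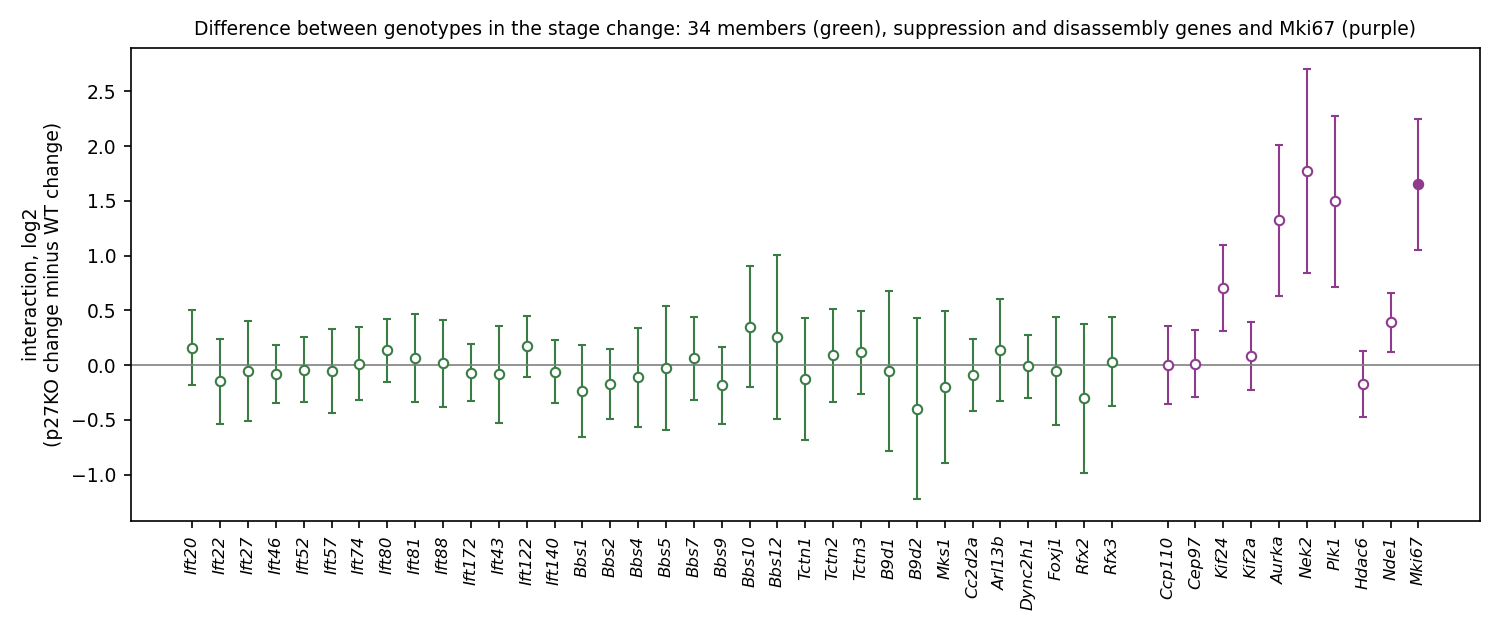
Interaction (p27KO change minus WT change, log2) with its 95% interval for the 34 members (green) and for 9 suppression and disassembly genes and the proliferation marker Mki67 (purple). Every member's interval spans 0, whereas those of Kif24, Aurka, Nek2, Plk1, Nde1 and Mki67 lie above it, and of all genes shown only Mki67 (filled) passed after adjustment.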

How the data were processed

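The authors mapped the reads with STAR against mouse transcripts of Ensembl and estimated counts per gene with RSEM. The labels name GRCm38, and the submitters' processing notes also list FastQC, Trimmomatic, cutadapt and DESeq2, with no versions. The deposited values are expected counts, given as whole numbers without normalization. Strand use in counting is not given in the sources used here. The members and all gene lists were chosen with earlier results of these data known.

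A gene was dropped where 4 or more of the 10 libraries had under 1 CPM, which left 12859. Counts were fitted as 4 groups in edgeR 4.0.16 (R 4.3.3, TMM, robust quasi-likelihood, two-sided tests, Benjamini-Hochberg adjustment, threshold 0.05), while the methods of the study used DESeq2. The SE is the absolute log2 fold change divided by the square root of F. RPKM used the joined length of all exons of a gene in GENCODE. In each role, the member with the largest called rise and the largest called fall in WT were given in full. From each further list the genes with the smallest p in WT were named, up to 3, and others (Ttc30a1, Kif3b, Kifap3, Wdr34, Wdr60, Nphp4, Sclt1, Cep164, Cep83, Cep89, Rfx4, Nek2, Cep97, Hdac6, Dnah9, Hydin and Mcidas) after their values were seen, while 1 result under this rule is not reported here. At these depths, the spread between 2 or 3 replicates sets the precision of most values, and counting error that of genes with few counts. The steps were tested on simulated counts.

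The main fit had no replicate block. The numbers met the criterion for pairs in WT, where deviations from the group means correlated at 0.248, 0.301 and 0.395 for the same number and at -0.221 to -0.0874 otherwise. The labels do not say what the numbers mark. Those labelled p27KO correlated at -0.138. No replicates were copies (chi-square per gene 14.8 to 64.5). The alternatives were DESeq2 1.42.0, its size factors or library totals in edgeR, 2 other filters, fits of only the groups compared, replicate blocks and each library left out.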

Additional observations from a re-analysis of the deposited data

Results flagged for a closer look

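Among all genes of the lists examined, the stage change differed between genotypes, by a test of the difference itself, in 1, the proliferation marker Mki67, which is no cilium gene. It went from 841 ± 57.9 CPM to 96.0 ± 24.6 CPM in WT (SD, n = 3) and from 940 ± 65.4 CPM to 337 ± 36.3 CPM in those labelled p27KO (SD, n = 2). The interaction was 1.65 on the log2 scale (SE 0.27, adjusted p = 0.0392, edgeR). With each library left out it lay between 1.45 and 1.80, and its adjusted p between 0.00776 and 0.228, past the threshold only without DIFF library 1 or 2 of WT. With a replicate block within genotype the adjusted p was 0.0582 and the call was lost. No member showed such a difference.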

How the results depend on the processing

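In WT, all 24 members that rose were called in each of the 10 fits with 1 library left out, and 22 in each of the 9 other alternatives, Ift57 and Ift140 being lost without a filter. With 1 library left out the members that rose numbered 24 to 26 and those that fell 1 to 3 (1 without DIFF library 2 of WT), with a median log2 fold change of 0.61 to 0.65. Without a filter the median was 0.56, where that of all genes was 0.08. In the libraries labelled p27KO 20 to 24 rose and 0 to 1 fell with 1 library left out, the median being 0.58 to 0.60. Ift27, the gene that fell there, was not called (0 members lower) with library totals in place of TMM, nor without PRO library 2 or 3 or DIFF library 2 of WT or any library labelled p27KO. No member was called in the interaction or between genotypes in any fit, with medians from -0.07 to -0.01 (interaction), -0.02 to 0.03 (DIFF) and -0.01 to 0.02 (PRO) with 1 library left out. No value given in full changed direction. DESeq2 called 24 members higher and 3 lower in WT, and 24 and 1 in the libraries labelled p27KO.

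With the replicate number as a block, 24 members rose and 3 fell in WT, and 20 rose and 1 fell in the libraries labelled p27KO. A replicate block within genotype gave 22 rising members there, as it did with the p27KO numbers crossed, a pairing added after seeing the data. The blocks moved no count of members by over 1.5 times, but the block within genotype took the genes called in the interaction from 50 to 29 (66 crossed). With 2 libraries per group labelled p27KO, the intervals of the genotype comparisons are wide, and no detection limit was computed.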
